A study of Homo sapiens with 2 samples.

Results

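OTX2 binding was examined at the integrin and laminin genes in tumorspheres of D283, an established medulloblastoma cell line. Integrins are cell surface receptors that pair an alpha with a beta subunit and attach cells to the extracellular matrix or to other cells. Laminins are large secreted proteins of the basement membrane, each made of an alpha, a beta and a gamma chain, and several integrins are laminin receptors. In the developing cerebellum, laminin of the pial basement membrane and integrins on neural progenitors are known for their part in the adhesion, proliferation and migration of these cells. OTX2 is a homeodomain transcription factor that prefers sites with a TAAT core followed by CC or CT.

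The genes were taken by symbol from the protein-coding genes of chromosomes 1 to 22, as ITGA or ITGB with a digit, ITGAD, ITGAE, ITGAL, ITGAM, ITGAV, ITGAX, or LAMA, LAMB or LAMC with a digit. This gave 38 of 18978 genes, 26 integrin and 12 laminin genes. The ITGB1BP genes and ITGB3BP encode binding partners of integrin tails and were left out. A single condition was profiled, OTX2+ control tumorspheres without treatment, grown as floating spheres in medium with EGF and bFGF. There was 1 OTX2 ChIP library (61259377 fragments after duplicate removal, from an Abcam OTX2 antibody) and 1 input library of sheared chromatin (22521186 fragments). No value therefore has a replicate error, no condition without OTX2 was profiled here, and expression was not measured in these libraries.

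The authors' list gives 137412 peaks in GRCh38. Each has a pileup, which is the fragment coverage at the summit scaled down toward the depth of the input, and a fold enrichment over the local input. Every 0.735 of pileup was taken as 1 fragment, since all pileups are whole multiples of it. This step is not the plain ratio of input to ChIP depth, so all fragment counts are inferred. The median pileup of all peaks was 38.97, the upper quartile 69.85, and the range 11.03 to 338.96. The median local input was 5.00, on the same scale. Intervals of fragments are exact Poisson intervals at 95% and cover counting error only. A peak near the TSS is one with at least 1 bp inside a window that reaches 5 kb upstream and 2 kb downstream from where the gene record begins. The gene body is the whole gene record.

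Of the genes with a peak close to the start, 5 had a summit inside the 250 bases upstream of a RefSeq start. They are shown because they are the places where a summit can be read in its own sequence (RefSeq, GRCh38.p14). Of the 38 genes, 26 matched the RefSeq promoter table. Each sequence is on the strand of its gene, ends at the base before the RefSeq start, and has the summit with the 10 bases on either side of it in capitals. The coordinates are chr5:52787666-52787915 (plus strand) for ITGA1, chr10:32958231-32958480 (minus) for ITGB1, chr3:124901419-124901668 (minus) for ITGB5, chr7:108003162-108003411 (minus) for LAMB1 and chr3:49133051-49133300 (minus) for LAMB2.
ITGA1: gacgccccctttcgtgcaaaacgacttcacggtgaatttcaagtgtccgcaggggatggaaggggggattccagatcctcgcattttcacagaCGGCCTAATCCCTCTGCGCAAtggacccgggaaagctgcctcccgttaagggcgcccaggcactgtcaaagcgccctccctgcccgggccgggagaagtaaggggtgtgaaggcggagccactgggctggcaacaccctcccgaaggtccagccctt
ITGB1: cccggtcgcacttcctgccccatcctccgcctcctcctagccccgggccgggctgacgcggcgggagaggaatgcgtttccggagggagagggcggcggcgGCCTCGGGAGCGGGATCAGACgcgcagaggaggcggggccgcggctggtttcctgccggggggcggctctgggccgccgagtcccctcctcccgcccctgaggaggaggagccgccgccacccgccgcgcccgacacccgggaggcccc
ITGB5: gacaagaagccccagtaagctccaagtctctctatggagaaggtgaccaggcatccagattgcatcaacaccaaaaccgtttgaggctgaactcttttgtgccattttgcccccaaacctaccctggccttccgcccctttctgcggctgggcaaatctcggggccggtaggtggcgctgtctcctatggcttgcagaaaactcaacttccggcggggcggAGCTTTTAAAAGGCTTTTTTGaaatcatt
LAMB1: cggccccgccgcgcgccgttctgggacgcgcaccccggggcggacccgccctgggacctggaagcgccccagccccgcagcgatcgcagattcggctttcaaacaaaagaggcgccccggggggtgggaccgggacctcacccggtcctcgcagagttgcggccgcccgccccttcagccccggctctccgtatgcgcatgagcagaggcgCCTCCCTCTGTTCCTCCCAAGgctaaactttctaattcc
LAMB2: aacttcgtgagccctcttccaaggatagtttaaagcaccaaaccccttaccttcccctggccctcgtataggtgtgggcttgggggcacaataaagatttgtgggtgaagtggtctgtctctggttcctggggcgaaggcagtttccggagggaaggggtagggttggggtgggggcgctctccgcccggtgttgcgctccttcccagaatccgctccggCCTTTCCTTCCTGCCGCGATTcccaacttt

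The ITGA1 promoter held a TAATCC that starts 152 bases upstream of the start, and the summit lay 147 bases upstream, on the last base of this motif. The other 4 promoters held neither TAATCC nor TAATCT on either strand in these 250 bases. Summits lay 139 bases upstream of the RefSeq start of ITGB1, 19 of ITGB5, 29 of LAMB1 and 20 of LAMB2. Taking the first RefSeq promoter listed for each gene, a TAATCC or TAATCT on either strand was present in 2 of the 26, those of ITGA1 and ITGA2B, and in 9.44% of 15101 protein-coding promoters of the same length. ITGA2B had its match without a peak near the TSS. Outside this count, another RefSeq promoter of ITGB5 (chr3:124887685-124887934, minus strand) held a match 24 bases upstream of its start and was overlapped by a peak of 36 fragments (5.51-fold) whose summit lay outside it. The TAAT core alone, which the longer motifs contain, was present in 8 of the 26 and in 39.6% of all. A match is a description of these letters and not of a bound site.

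An OTX2 peak was called near the TSS of 18 of the 38 genes, or 47.4% (Wilson 95% interval 32.5% to 62.7%), and near the TSS of 58.5% of all protein-coding genes. The 38 genes were longer than the rest, with a median of 80.6 kb against 28.0 kb, and over all genes such a peak was present in 44.9% of the shortest of 5 length groups and in 65.0% of the longest. At the rates of these length groups, 63.4% would be reached. By family, 12 of 26 integrin genes and 6 of 12 laminin genes had a peak near the TSS. A fold enrichment of at least 5 was reached there by 13 of the 38 (34.2%) and by 39.6% of all genes. Within 1 kb of the TSS, 13 of the 38 (34.2%) had a peak against 48.1% of all genes. The share among the 38 lay below that of all genes in each of these counts, but above it when any transcript start was counted (78.9% against 68.0%). No test of these shares was run.

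In the gene body the shares among the 38 lay above those of all genes. A peak was present in 35 of the 38 bodies (92.1%, Wilson 79.2% to 97.3%) and in 70.7% of all gene bodies. At the rates of the same length groups 85.8% would be reached. Leaving out the first 2 kb after the TSS, 34 of the 38 (89.5%) and 56.3% of all genes had a body peak, shares not adjusted for gene length. A body peak without any peak near the TSS was found for 18 of the 38 genes (47.4%) and for 17.8% of all genes, where the rates of the length groups give 24.8%. All 12 laminin genes had a body peak. ITGA5, which encodes the alpha subunit of the fibronectin receptor, and ITGAX, a leukocyte subunit, had a peak in neither place.

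**Figure D1:**
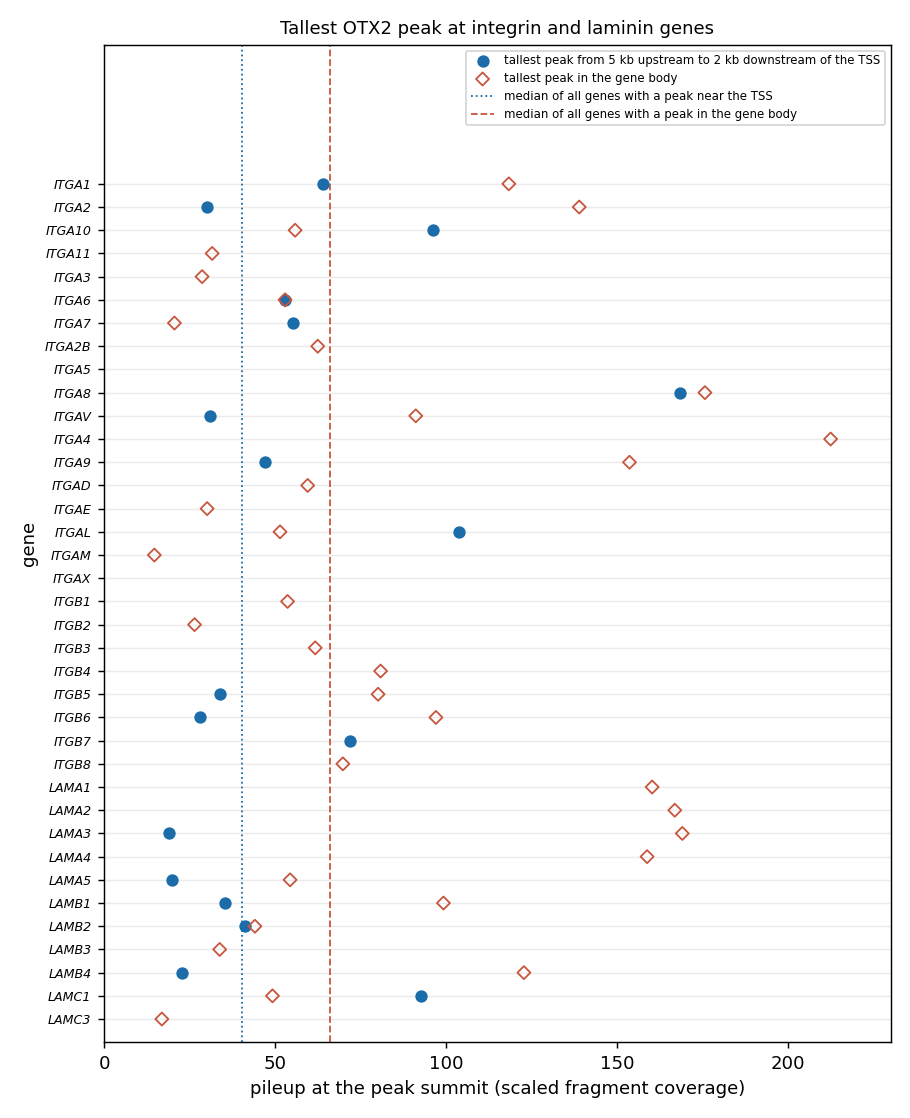
Pileup (scaled fragment coverage) of the tallest peak near the TSS (filled circles) and in the gene body (open diamonds) for 37 of the 38 genes, with the medians over all genes that have such a peak (40.44 dotted and 66.17 dashed). The body peaks of LAMA1, LAMA2, LAMA3 and LAMA4 sit between 158.82 and 169.11, while near the TSS only LAMA3 of these had a peak, at 19.12.

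Near the TSS, the 38 genes had 28 peaks, with 1 peak at 10 genes, 2 at 6 and 3 at ITGA7 and LAMB1. The summit was upstream of the TSS for 20 of the 28 (71.4%, against 62.8% of all such peaks at all genes). It lay within 250 bp of the TSS for 4 of the 28 (14.3%, against 29.0%). The median distance was 1193 bp against 836 bp. Over the 18 genes, the tallest peak had a median pileup of 44.12, against 40.44 over all genes with a peak near the TSS. A pileup at or above the upper quartile was reached by 5 of the 38 genes (13.2%) and by 12.8% of all genes. These 5 were ITGA8, ITGAL, ITGA10, LAMC1 and ITGB7. In height, the share of the 38 genes was thus near that of all genes.

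**Figure D2:**
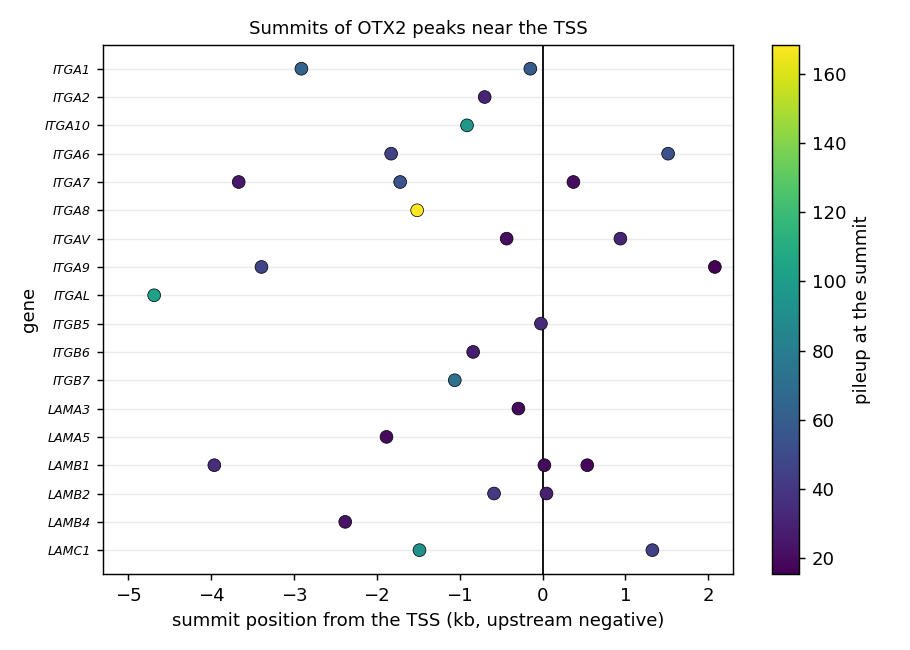
Position of each summit from the TSS in kb (upstream negative) for the 18 genes with a peak near the TSS, coloured by pileup. The brightest point is ITGA8 at 1513 bp upstream with a pileup of 168.38, and most summits lie upstream of the start.

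Among the integrin alpha subunits that bind collagen, 3 of 4 had a peak near the TSS. ITGA1 (chr5, 52787916 to 52959209, plus strand) encodes the alpha subunit of a collagen IV receptor. Its peak over the promoter, from 52787330 to 52788433, held 80 fragments (63.4 to 99.6), 12.0-fold over input. Farther out, 2910 bp upstream, stood a peak of 87 fragments (69.7 to 107), 10.8-fold over input. The gene record of PELO starts at the same base as that of ITGA1, so both peaks belong equally to PELO. ITGA10 (chr1, 145891208 to 145910111, minus strand) encodes a collagen receptor subunit of cartilage. A peak of 131 fragments (110 to 155), 12.1-fold over input, was centred 911 bp before its start. ITGA2, the subunit of the platelet collagen receptor, had a lower peak of 41 fragments, 5.98-fold over input and 698 bp upstream. ITGA11 was the member of this group without one, and its nearest peak lay 121 kb from the TSS.

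Among the laminin-binding alpha subunits, ITGA6 and ITGA7 had a peak near the TSS and ITGA3 did not. ITGA6, which marks many stem and progenitor cells, had peaks on both sides of the TSS. The taller one lay in intron 1, 1516 bp downstream, and held 72 fragments (56.3 to 90.7), 10.5-fold over input. The other lay 1827 bp upstream with 61 fragments. ITGA7, the muscle laminin receptor subunit, had 3 peaks. The tallest lay 1718 bp upstream of the record start and 2084 bp from the TSS of BLOC1S1. It held 75 fragments (59.0 to 94.0), 11.2-fold over input. The ITGA7 record starts 8.5 kb upstream of its canonical transcript, and no peak was called near that canonical start. The ITGA7 peak at 3667 bp upstream lay 296 bp from the TSS of RDH5, a retinol dehydrogenase gene, and the peak at 373 bp downstream lay 5 bp from the TSS of ENSG00000258311, another protein-coding gene. The peak of ITGA3 nearest to its TSS lay 5.08 kb downstream, with a pileup of 15.44.

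Among the subunits that recognise the RGD sequence of fibronectin and vitronectin, ITGA8 and ITGAV had a peak near the TSS, and ITGA5 and ITGA2B did not. ITGA8 (chr10, 15513954 to 15719922, minus strand) is known for kidney development and is also expressed in neural tissue. Between 15720764 and 15721913, with the summit 1513 bp upstream, 229 fragments (200.3 to 261) piled up, 21.2-fold over input. This was the tallest peak near a TSS among the 38 genes and lay at percentile 97.8 of the tallest such peaks of all genes with one. ITGAV, the vitronectin receptor subunit, had peaks of 28 and 42 fragments at 433 bp upstream and 940 bp downstream. Both were below the median of all peaks.

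ITGA9, which shares its ligands in part with ITGA4, had a peak of 64 fragments (9.61-fold) 3392 bp upstream, and a weak one 2080 bp downstream with 21 fragments. ITGA4, which pairs with beta subunits to bind VCAM1 and fibronectin and is among the axon guidance genes the study names, had no peak near the TSS, and its nearest was 9.29 kb downstream. Of the 5 leukocyte subunits, ITGAL alone had a peak near the TSS. This ITGAL peak of 141 fragments (119 to 166), 9.52-fold over input, lay 4687 bp upstream, at the outer edge of the window. The local input there was 10.0, in a range of 3.99 to 11.0 over the 28 peaks. ITGAD, ITGAE, ITGAM and ITGAX had no peak near the TSS.

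Of the 8 beta subunits, ITGB5, ITGB6 and ITGB7 had a peak near the TSS. ITGB7, a leukocyte subunit, had the tallest, 1059 bp upstream with 98 fragments (79.6 to 119). Over a local input of 11.0, the fold enrichment was 6.09. ITGB5 had 46 fragments 19 bp upstream (4.97-fold), and ITGB6, an epithelial subunit, had 38 fragments 837 bp upstream (4.13-fold). ITGB1, ITGB2, ITGB3, ITGB4 and ITGB8 had none by the gene record. The ITGB5 record starts 14053 bp upstream of its canonical transcript, and a peak of 36 fragments (5.51-fold) lay 292 bp upstream of that canonical start. The ITGB1 record starts 47.6 kb upstream of its canonical transcript. At the canonical start of ITGB1, the beta subunit shared by most matrix receptors, there were 2 peaks, 139 bp upstream with 44 fragments (5.56-fold) and 1593 bp downstream with 38 fragments (4.37-fold). With canonical starts ITGB2 also gained weak peaks, of 16 and 26 fragments at 3400 and 4769 bp upstream, and ITGA7 lost its peaks. In all 19 of the 38 genes (50.0%) then had a peak, against 59.9% of all genes.

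Of the laminin alpha chains, LAMA3 and LAMA5 had a peak near the TSS, and LAMA1, LAMA2 and LAMA4 did not. Both peaks were low. LAMA3, the chain of epithelial basement membranes, had 26 fragments 291 bp upstream (4.03-fold). LAMA5, a widely expressed chain, had 27 fragments 1883 bp upstream (3.83-fold). Among the beta chains, LAMB1 had 3 peaks, of 48 fragments 3961 bp upstream, 26 fragments 23 bp downstream and 25 fragments 540 bp downstream. LAMB2, the beta chain of the neuromuscular synapse and the pial surface, had 56 fragments 585 bp upstream and 39 fragments 48 bp downstream of the record start. LAMB4 had 31 fragments 2381 bp upstream, and LAMB3 had none. LAMC1 (chr1, 183023420 to 183145592, plus strand) encodes the gamma chain of most laminins. It had the tallest peak near a TSS of the laminin genes, with 126 fragments (105 to 150.0) or 11.8-fold over input at 1485 bp upstream, and another of 60 fragments in intron 1. LAMC3 had none, and its nearest peak lay 37.5 kb from the TSS.

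Over the 20 genes without a peak near the TSS, the gap from the TSS to the nearest peak had a median of 20.0 kb and ran from 2.37 kb at ITGA2B to 121 kb at ITGA11. None of the 5 genes on chromosome 17 (ITGA2B, ITGA3, ITGAE, ITGB3, ITGB4) had a peak near the TSS, where 56.2% of protein-coding genes of that chromosome had one. Of the 4 genes on chromosome 16, ITGAL had one, against 49.8% there. On chromosome 7, which had 27.3 peaks per Mb against 47.9 over chromosomes 1 to 22, LAMB1 and LAMB4 had one and ITGB8 did not, against 37.4% there. The median local input of peaks was 6.67 on chromosome 17, 4.00 on chromosome 16 and 3.99 on chromosome 7, against 5.00 over all peaks, and its part in these counts was not tested. Many peaks shared a local input of 3.99, the lowest value over the 28 peaks near the TSS. The medians of chromosomes 16 and 7 lie at or near this floor and may not show how low the input was.

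The count near the TSS depended most on the choice of the start. When a peak near the start of any annotated transcript was counted, 30 of the 38 genes (78.9%, Wilson 63.7% to 88.9%) had one against 68.0% of all genes, so that the order was turned around. The 38 genes had a median of 9 distinct transcript starts against 5 over all genes. For the 12 genes added, the tallest peak brought in lay near a start other than the canonical one. At ITGA3 and LAMA4 the start was that of a protein-coding transcript, 20.7 and 104 kb into the gene. At the other 10 it belonged to a transcript annotated without a coding sequence, with a retained intron or as a target of nonsense-mediated decay. The LAMA4 start lay 1146 bp from a peak of 216 fragments. The 8 genes with no peak near any start were ITGA5, ITGA11, ITGAM, ITGAX, ITGB3, ITGB8, LAMB3 and LAMC3.

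The gene bodies held 216 peaks, of which 201 (93.1%) had their summit more than 5 kb from the TSS. This was 5.36 peaks per 100 kb of gene (exact Poisson interval 4.67 to 6.13), against 6.0 over all genes. The median pileup of the 216 peaks was 33.09, against 38.97 over all body peaks, and 36 of them (16.7%) reached the upper quartile, against 24.4% at all genes. By the canonical transcript, 163 of the 216 lay in a later intron (75.5%, against 51.8% at all genes) and 34 in intron 1 (15.7%, against 24.3%). Per length, intron 1 of these genes held 4.76 peaks per 100 kb against 7.27 over all genes, and the later introns 5.48 against 5.04. Coding exons held 4 of the peaks. The tallest LAMB2 body peak, of 60 fragments, had its summit just past the 3′ end of the gene and 5 bp from the TSS of USP19, a deubiquitinase gene. These densities were not adjusted for gene length.

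**Figure D3:**
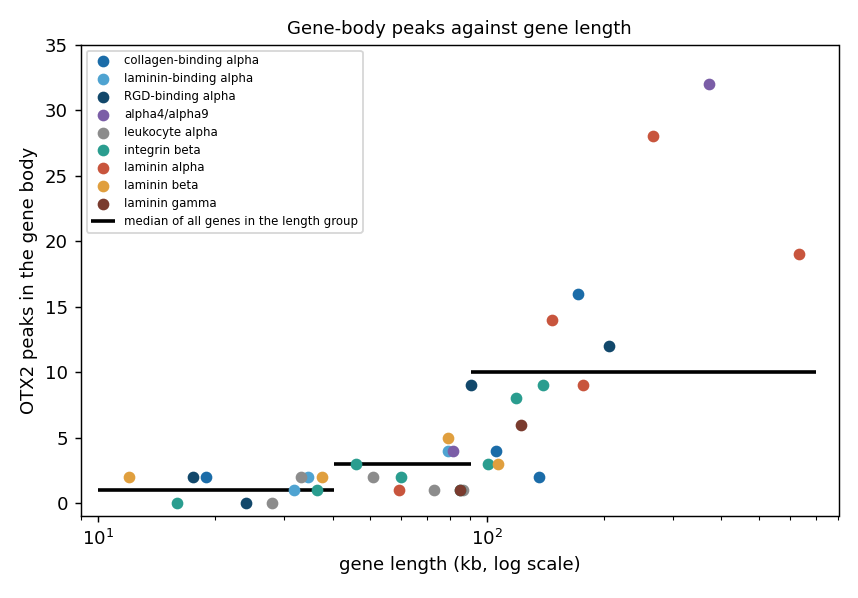
Number of peaks in the gene body of 37 of the 38 genes (y axis) against gene length in kb (x axis, log scale), coloured by the role of the gene, with the median over all genes of each length group as black bars. Among the 14 genes of the longest group, the median was 9 peaks against 10 over all genes of that group, and ITGA9 with 32 and LAMA3 with 28 lie highest.

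Counts followed gene length, as they do over all genes. In the longest of the 5 length groups (over 91.1 kb), the 14 integrin and laminin genes held 5.89 peaks per 100 kb against 5.77 for all genes of that group. In the next group (40.4 to 91.0 kb), the 13 genes held 3.95 against 5.99, and in the group below (19.0 to 40.4 kb), the 7 genes held 3.55 against 6.35. The order was the other way in the group of 7.81 to 19.0 kb, where the 4 genes held 9.33 against 7.84. The 6 genes with most peaks, ITGA9, LAMA3, LAMA2, ITGA1, LAMA4 and ITGA8, held 121 of the 216 (56.0%). Density among them was uneven. LAMA3 had 10.5 peaks per 100 kb, LAMA4 9.52, ITGA1 9.34, ITGA9 8.62, ITGA8 5.83 and LAMA2, the longest at 633 kb, 3.00.

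**Figure D4:**
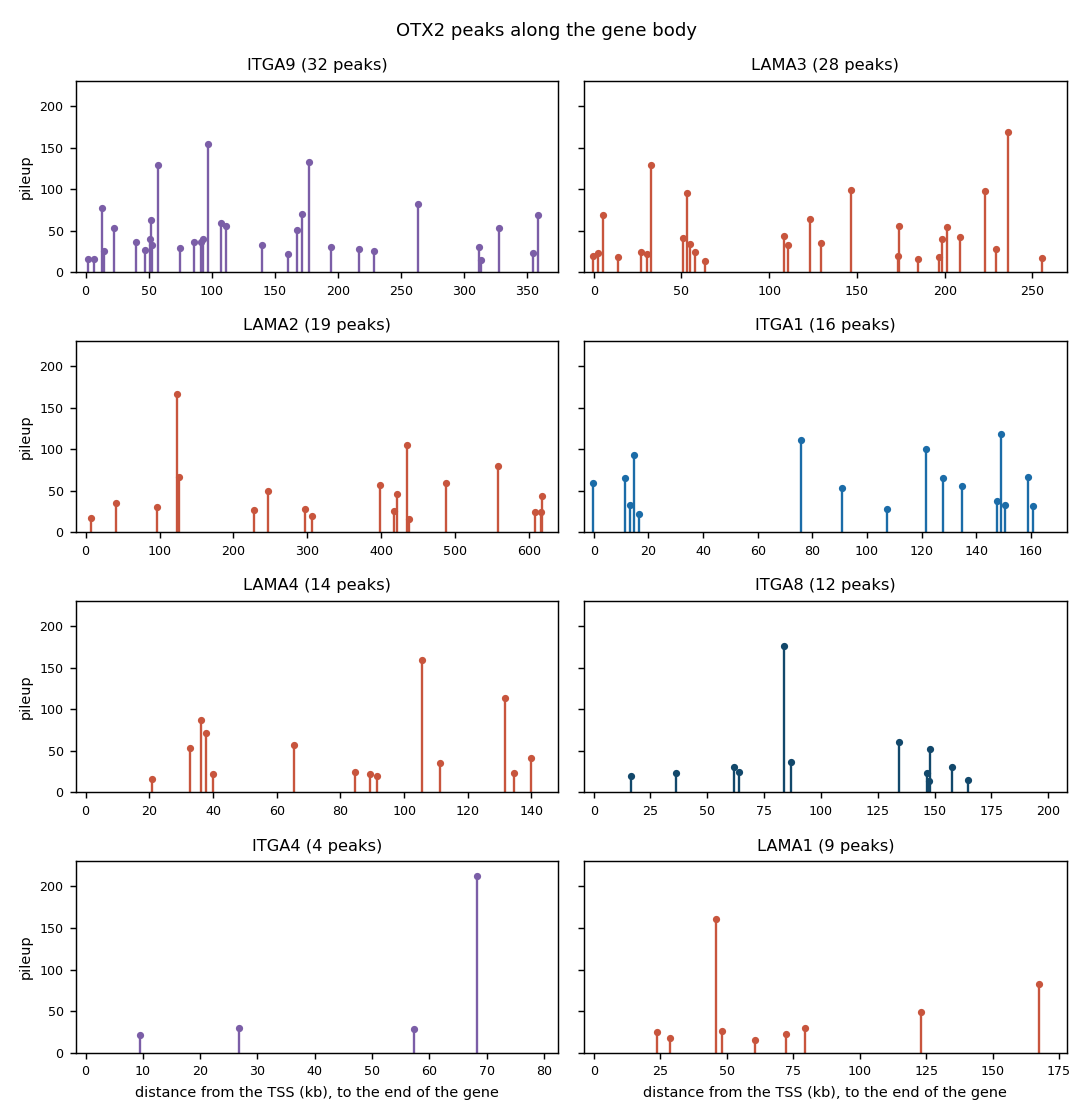
Peaks along 8 gene bodies, as distance of the summit from the TSS in kb to the end of the gene (x axis) and pileup (y axis); shown are the 6 genes with most peaks, ITGA4 and LAMA1. The tallest peak of each gene lies far from the TSS, from 45.9 kb at LAMA1 to 236 kb at LAMA3, and the ITGA4 peak at 68.4 kb stands at 212.49 beside 3 peaks between 21.32 and 29.41.

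The peak with most fragments at any of the 38 genes lay in ITGA4 (chromosome 2 from 181457202 to 181538940, plus strand). The peak from 181525269 to 181525928 is in intron 21, 68.4 kb from the TSS, and held 289 fragments (257 to 324). It reached percentile 98.4 of the pileups of all peaks and was 17.8-fold over a local input of 11.0. The other 3 ITGA4 peaks held 29, 40 and 39 fragments, in introns 2, 9 and 17. In ITGA8, the peak in intron 13 held 239 fragments (209.7 to 271), 17.7-fold over a local input of 9.0. Its interval overlaps that of the ITGA4 peak, and the difference between them was not tested. ITGA8 thus had a tall peak both upstream of the TSS and within the body. The remaining 11 ITGA8 body peaks were lower, and the 12 together had a median pileup of 27.94, from 13.23 to 175.73.

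Of the 5 laminin alpha genes, 4 had a body peak of over 200 fragments. In LAMA3 (chromosome 18, 23689453 to 23956222, plus strand) it held 230 fragments (201 to 262) in intron 62, 236 kb from the TSS and 18.9-fold over input. In LAMA2, the chain of muscle and peripheral nerve, it held 227 fragments (198 to 259) in intron 1, 124 kb from the TSS. Its fold enrichment of 28.7 was the highest among these tall peaks, at percentile 98.1 of all peaks. In LAMA1, the early embryonic chain also found in the pial basement membrane, it held 218 fragments (190.0 to 249) in intron 3, 45.9 kb from the TSS and 24.1-fold over input. In LAMA4, the chain of vessels and mesenchyme, it held 216 fragments (188 to 247) in intron 17, 106 kb from the TSS and 26.2-fold over input. The Poisson intervals of these 4 peaks overlap, and they are not ranked here. LAMA5, at 59.4 kb the shortest of the alpha genes, had 1 body peak, of 74 fragments. Body peaks of this height are usual in long genes, since the median of the tallest body peak was a pileup of 135.29 over all genes of the longest group and 130.88 over the 14 integrin and laminin genes in it.

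ITGA9 had 32 body peaks with a median pileup of 36.40 (14.71 to 153.67). Its tallest held 209 fragments (182 to 239) in intron 15, 97.2 kb from the TSS. Another peak of intron 15, 177 kb from the TSS, held 180 fragments and had the higher fold enrichment, 25.6 against 15.5, since its local input was 4.21 against 9.0. LAMA3 had 28 body peaks with a median of 34.19 (13.97 to 169.11), LAMA2 19 with a median of 35.29 (16.18 to 166.91) and LAMA4 14 with a median of 38.60 (16.18 to 158.82). ITGA1 had 16 with the higher median of 57.35 (22.06 to 118.38). Its peak in intron 3, 76.0 kb from the TSS, held 151 fragments with a fold enrichment of 22.5.

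Body peaks with a pileup at or above the upper quartile were present in 17 of the 38 genes (44.7%, Wilson 30.1% to 60.3%) and in 34.2% of all genes. They included both ITGA4 and ITGA9, 4 of 5 laminin alpha genes, 2 of 4 laminin beta genes, 4 of 8 integrin beta genes, 2 of 4 collagen-binding and 2 of 4 RGD-binding alpha genes. None of the laminin-binding alpha genes (0 of 3) and none of the leukocyte alpha genes (0 of 5) had one. These shares were not adjusted for gene length. Among genes over 91.1 kb, the tallest body peak of the integrin and laminin genes had a median pileup of 130.88 against 135.29 over all genes. It was 54.41 against 69.12 from 40.4 to 91.0 kb, and 33.82 against 50.0 from 19.0 to 40.4 kb. Only from 7.81 to 19.0 kb was it higher, 55.88 against 44.85. The leukocyte alpha genes held 6 body peaks in all, 2.21 per 100 kb (0.811 to 4.81), the lowest density of the groups of roles, against 6.0 over all genes. All of them but ITGAE lie on chromosome 16, which had 33.0 peaks per Mb against 47.9 over chromosomes 1 to 22. The part of the chromosome in this density was not tested. ITGAM held a single peak of 20 fragments. Of 17 genes with peaks in both places, the body peak was the taller in 12. No share over all genes stands beside this count, so it is not read as a trait of these genes. Longer genes hold more body peaks, and a peak just downstream of the TSS, as at ITGA6, counts in both places.

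The other genes of the adhesion pathway were taken from 3 lists. Of 18 genes for proteins that link integrins to actin and signalling, 9 (50.0%) had a peak near the TSS. A body peak was present in 15 of the 18 and in 70.7% of all genes. The counts of these lists were not adjusted for gene length. VCL, which encodes the talin and actin binding protein vinculin, had a peak of 346 fragments (23.2-fold) 86 bp upstream. LIMS2 followed with 178 fragments 4057 bp upstream. PTK2, the focal adhesion kinase gene of 344 kb, had 36 fragments near the TSS and a body peak with a pileup of 239.7. Over all genes of the longest length group, the tallest body peak had a median pileup of 135.29. ILK and ZYX had no peak in either place. Of 10 partners of laminin in the basement membrane, 7 (70.0%) had a peak near the TSS, among them COL4A2 with 157 fragments 4045 bp upstream, and AGRN and SPARC had no peak in either place. Of 8 other integrin ligands, 4 (50.0%) had one. FN1, the fibronectin gene, had none near the TSS and 11 in the body. The Wilson intervals of these shares run from 29.0% to 71.0%, 39.7% to 89.2% and 21.5% to 78.5%, and the share over all genes was 58.5%. The median pileup of the tallest peak near the TSS was 54.41, 33.09 and 35.30 in the 3 lists, against 40.44 over all genes with one.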

How the data were processed

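Chromatin of D283 tumorspheres was immunoprecipitated with an OTX2 antibody and sequenced beside an input library. Per the labels and the file headers, the authors mapped paired-end fragments to GRCh38 with bowtie2 2.2.4 and made the peak list with MACS2 2.1.0.20140616 (narrow peaks, 1 fragment per position, q-value cutoff of 0.05). The deposited pileup is a signal, ChIP coverage at the summit scaled down toward the input depth. The authors' fold enrichment is the ratio of pileup over local input, after adding 1 to both. The deposited −log10 q-value was used in an alternative threshold, and the p-value column was not used. After duplicate removal, ChIP depth was 2.72 times input depth, which limits the precision of the ratio.

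Gene positions were the original GRCh38 exon positions recorded in GENCODE 44, whose annotation used here is placed on GRCh37; no coordinate was converted. Every pileup was a whole multiple of 0.735 within 0.02 fragments. Local input was computed from pileup and fold enrichment. Exons and introns are those of the canonical transcript. Body sequences were not analysed, since the genome used is of another build. The members and lists were chosen with earlier results of these data known, so no set test was run. Named in full were the 8 genes with the tallest peak near the TSS, the 6 with most body peaks, the 3 with the tallest body peak and ITGA4; other values stand for comparison, and LAMA1 was added to the plot after its values were seen. 1 of the 38 genes enters the counts but is not reported here by name, and is left out of the plots over all genes. Overlap counting was checked on made-up peaks with known genes. Tables were made in Python 3.11.15 with numpy 2.4.6 and pandas 2.3.3, intervals with scipy 1.17.1 and plots with matplotlib 3.10.9.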

Additional observations from a re-analysis of the deposited data

How the results depend on the processing

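No paired analysis was possible because the ChIP and the input were sequenced as a single library each. Counting the start of any transcript moved the number of integrin and laminin genes with a peak near the TSS from 18 to 30. The body density moved from 5.36 to 4.59 peaks per 100 kb when −log10 q had to reach 5, and to 3.25 when the fold enrichment had to reach 5, since stricter thresholds leave fewer peaks. The other 33 values, of 36 recomputed, stayed within 1.5 times the count or within the interval of the value. At this fold threshold ITGB5, ITGB6, LAMA3, LAMA5 and LAMB4 lost their peak near the TSS, and within 1 kb of the TSS ITGA6, ITGA9, ITGAL, LAMA5 and LAMB4 did. ITGA7, ITGAM and LAMC3 lost their body peak under both stricter thresholds. Without chromosome 7, 16 of 35 genes (45.7%) had a peak near the TSS, against 59.6% of all genes. The input depth limits how small an enrichment can be called, and a gene without a peak is one where none was detectable at this depth.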

Other observations

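Several of these genes lie side by side. Between LAMB1 and LAMB4 on chromosome 7 there were 4 peaks in 20.3 kb, the tallest with a pileup of 92.64 and a fold enrichment of 18.8. Between ITGA1 and ITGA2 on chromosome 5 there were 2 peaks in 30.1 kb, with pileups of up to 30.15. Between ITGAM and ITGAX (22.2 kb) and between ITGAX and ITGAD (10.3 kb) on chromosome 16 there were 0. Some of these peaks were also counted near a TSS, among them the LAMB1 peak 3961 bp upstream and the ITGA2 peak 698 bp upstream.

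The genes left out of the members also had peaks. ITGB1BP1, which encodes a binding partner of the ITGB1 tail, had 51 fragments 37 bp downstream of the TSS, and ITGB3BP had 20 fragments 57 bp downstream. ITGBL1, a gene related to the beta subunits, had 8 body peaks, the tallest with a pileup of 142.64, and none near the TSS.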
